A study of Mus musculus with 12 samples.

Results

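The leukotriene and lipoxygenase genes described here were 7 of the 55401 gene IDs in the deposited tables. They were taken by name: Alox5, Alox5ap and Alox15 for the oxygenation of arachidonate, Lta4h and Ltc4s for the enzymes after it, and Ltb4r1 and Cysltr1 for the receptors. All 7 were found, and all 7 passed the filter on low values (5 or more in 3 libraries or more) when the 12 libraries were fitted together. Alox15 did not pass it in the 6 saline libraries alone.

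The libraries came from myeloid cells sorted by surface markers (CD45+/CD11b+/Ly6G-) out of mouse hind paws, 4 h after the paw had been injected with saline or with 1% carrageenan, a seaweed polysaccharide that provokes acute inflammation and pain. The mice were FABP5Flox (called Flox below) or FABP5Flox/LysM-Cre (called LysMCre below), and all of them carried the floxed allele of the fatty acid binding protein gene Fabp5. In LysMCre mice, Cre recombinase is made from the lysozyme gene Lyz2 in monocytes, macrophages and neutrophils. Each of the 4 groups held 3 libraries, named by mouse numbers, and the cells of 3 or 4 adult mice were pooled for a library. No group carried LysM-Cre without the floxed allele, so the targeting of Fabp5 cannot be told apart from the presence of Cre or of the changed Lyz2 allele. The 3 libraries of a group are pools of different mouse numbers, so that p-values rest on the spread between pools.

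Leukotrienes are made from arachidonate, a fatty acid cut from membrane phospholipids. 5-lipoxygenase (Alox5), helped by the membrane protein FLAP (Alox5ap), turns it into leukotriene A4, from which leukotriene A4 hydrolase (Lta4h) makes leukotriene B4 and leukotriene C4 synthase (Ltc4s) makes the first of the cysteinyl leukotrienes. Leukotriene B4 draws neutrophils and other leukocytes into inflamed tissue through its receptor (Ltb4r1), while cysteinyl leukotrienes act through CysLT1 (Cysltr1) on smooth muscle, vessels and leukocytes. Alox15 encodes the 12/15-lipoxygenase, which in the mouse marks certain resident macrophages and eosinophils and also takes part in making lipoxins.

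Carrageenan went with a lower level of 3 of the 7 genes: Alox5, Ltc4s and Cysltr1 fell when the genotypes were averaged. Alox5 fell 3.11-fold, Cysltr1 2.40-fold and Ltc4s 2.14-fold, in a comparison that called 11.6% of all genes, 4.83% as lower. The Alox5 call held whichever library was left out, while that of Cysltr1 was lost in 5 of 12 omissions and that of Ltc4s in 1. Alox5ap and Lta4h, the other proteins of leukotriene synthesis, did not pass the test. Ltb4r1 was higher in all 3 Flox carrageenan libraries than in any Flox saline library, with no call by the test. The gap was narrow (52.4 against 50.7), and Flox groups were separate for 23.0% of all genes. In LysMCre the groups overlapped for Ltb4r1. No gene of the 7 passed between genotypes, where limma called 0 of 9371 genes in saline, 0 of 9151 in carrageenan and 1 of 10243 on average.

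The promoters of 3 genes are shown: Alox5 and Ltc4s, which fell, and Ltb4r1, the receptor gene that had its highest values in carrageenan. No promoter was at hand for Cysltr1, which also fell, and Ltb4r1 was not called. Each is 300 bases of the gene's own strand from RefSeq (GRCm38.p6), 250 before the annotated start and 50 after it. Capitals mark matches to motifs searched on both strands. Alox5 lies at chr6:116461129-116461428 on the minus strand, Ltc4s at chr11:50238483-50238782 on the minus strand and Ltb4r1 at chr14:55765712-55766011 on the plus strand.
Alox5 promoter: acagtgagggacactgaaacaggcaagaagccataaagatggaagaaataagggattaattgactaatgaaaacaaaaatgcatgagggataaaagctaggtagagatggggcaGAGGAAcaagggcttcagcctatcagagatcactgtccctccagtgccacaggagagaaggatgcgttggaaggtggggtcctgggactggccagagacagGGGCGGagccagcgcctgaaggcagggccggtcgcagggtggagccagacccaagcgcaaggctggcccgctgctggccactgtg
Ltc4s promoter: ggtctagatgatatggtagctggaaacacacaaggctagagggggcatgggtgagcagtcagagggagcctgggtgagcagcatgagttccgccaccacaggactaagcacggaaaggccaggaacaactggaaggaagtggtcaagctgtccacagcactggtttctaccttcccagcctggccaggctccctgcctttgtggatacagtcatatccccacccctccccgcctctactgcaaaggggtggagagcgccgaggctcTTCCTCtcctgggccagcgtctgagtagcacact
Ltb4r1 promoter: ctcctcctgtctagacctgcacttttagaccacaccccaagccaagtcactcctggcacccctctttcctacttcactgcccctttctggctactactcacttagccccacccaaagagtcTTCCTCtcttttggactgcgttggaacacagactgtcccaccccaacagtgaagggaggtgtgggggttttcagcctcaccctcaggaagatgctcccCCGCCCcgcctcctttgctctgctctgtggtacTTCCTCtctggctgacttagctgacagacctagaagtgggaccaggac
The motifs searched were the GC box GGGCGG, the ETS core GAGGAA, the AP-1 site TGANTCA, the NF-kB site (GGGA and TTCC with NN between them), the interferon response element (GAAA repeated after NN), the C/EBP site TTGCNNAA and the E-box CACGTG. Alox5 held a GC box that begins at position -35 and an ETS core at -136, with the start base as 0. On the opposite strand, Ltb4r1 held a GC box at -31 and ETS cores at -129 and 2, and Ltc4s held an ETS core at 16. Over all 32851 promoters of this length, 35.7% held a GC box and 28.3% an ETS core, so that both are common. The other motifs, none of which matched in these 3 windows, were found in 7.81% (AP-1), 1.47% (NF-kB), 3.44% (interferon response), 10.8% (C/EBP) and 7.15% (E-box) of promoters. A match is a stretch of letters and not a measured binding site. RefSeq promoters were at hand for 4 of the 7 genes, and the promoter of Lta4h held an ETS core on the opposite strand at -126.

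Depth, as reads in genes, lay between 111925 (Flox saline 1-3) and 2987015 (LysMCre saline 5-8), and LysMCre libraries held 4.99 times as many as Flox libraries (geometric means, two-sided exact permutation p = 0.00866, 6 against 6). A single read was worth 0.255 to 5.55 normalized counts, so 3 reads, the count that a reading of 0 still allows, stood for up to 16.6. Fabp5, which checks the labels, was read at 5.55 to 35.2 in Flox and 4.08 to 11.2 in LysMCre in saline, and at 34.2 to 98.6 and 6.15 to 23.2 in carrageenan. It had a log2 fold change of LysMCre over Flox of -1.20 ± 0.79 (± SE) in saline and -2.06 ± 0.53 in carrageenan, neither past the threshold (limma adjusted p = 0.683 and 0.497). Averaged over treatments Fabp5 was at -1.63 ± 0.50 (limma adjusted p = 0.210), called lower by edgeR (-1.98, adjusted p = 0.0345) and DESeq2 (-1.96, 0.00229). Lyz2 was at -0.85 ± 0.23 on that average (limma adjusted p = 0.194), called lower by DESeq2 (-0.88, 0.00516). The gate genes Ptprc (CD45) and Itgam (CD11b) were read in all 12 libraries, and Ly6g had 4 reads in all. Of the 9 eosinophil genes listed, Epx had 0 reads, Siglecf 21, Prg2 28 and Ccr3 62 over all libraries. Their list summed to 41.9 and 44.2 in Flox carrageenan 1-3 and 4-7, where none of these named genes had a read. In the other libraries it summed to 11.0 to 24.8. Of the mast cell genes Cpa3 had 112, Mcpt4 57, Ms4a2 11 and Fcer1a 6, and their list summed to 161 in Flox saline 1-3 against 6.47 to 85.8 in the other libraries. The 2 libraries that stand apart are Flox saline 1-3, the shallowest, and LysMCre carrageenan 9-12, whose macrophage and monocyte marker sums lay nearer to the Flox carrageenan libraries than to its own group.

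Values below are normalized counts of all 12 libraries on 1 common scale, in the order of the mouse numbers. A log2 fold change was fitted on log2 of the value plus 1, and p-values were adjusted over all genes tested (limma, Benjamini-Hochberg, threshold 0.05). This fit can understate changes of low genes. Where a shallow library had no read, it can also give larger changes than count-based fits, as for Ltb4r1 in Flox below. The median of all genes for LysMCre over Flox in saline was 0.25 in this fit and 0.056 with edgeR.

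Alox5, the 5-lipoxygenase gene that opens leukotriene synthesis (ENSMUSG00000025701, chr6:116410077-116461178 on GRCm38), was read at 194, 242 and 242 in Flox saline and at 68.1, 54.4 and 65.4 in Flox carrageenan. In LysMCre it was read at 248, 218 and 182 in saline and at 124, 88.6 and 43.2 in carrageenan. Every carrageenan library lay below every saline library in both genotypes, and the lowest of the 12 was LysMCre carrageenan 9-12. These values rest on 16 to 856 reads a library. The Flox mean went from 226 ± 27.3 to 62.6 ± 7.26 (± SD, n = 3 each), a log2 fold change of -1.83 ± 0.33 with a limma adjusted p of 0.00427. In LysMCre it went from 216 ± 32.9 to 85.4 ± 40.7, which is -1.44 ± 0.33 (limma adjusted p = 0.0283). The LysMCre call was lost when any of 5 libraries was left out (adjusted p up to 0.157), and the value was -1.02 without LysMCre carrageenan 9-12, whereas the Flox call held whichever of the 12 was left out. For the average of the genotypes, Alox5 fell by 1.64 ± 0.23 on the log2 scale, 3.11-fold (limma adjusted p = 0.000320), a call kept in all 12 omissions. In bulk RNA, fewer cells that make a transcript and less transcript per cell cannot be told apart.

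Alox5ap encodes FLAP, which presents arachidonate to 5-lipoxygenase (ENSMUSG00000060063, chr5:149264767-149288153). It was read at 461, 664 and 564 in Flox saline, 375, 435 and 492 in Flox carrageenan, 602, 835 and 669 in LysMCre saline and 501, 515 and 571 in LysMCre carrageenan. The carrageenan libraries of LysMCre lay below its saline libraries, while those of Flox overlapped. The log2 fold change was -0.37 ± 0.23 in Flox (limma adjusted p = 0.350) and -0.40 ± 0.23 in LysMCre (0.653), and -0.38 averaged, with a 95% interval of -0.72 to -0.038 (adjusted p = 0.156). An exon of Gm19719 lies opposite an exon of Alox5ap, and whether reads were counted by strand is not given in the sources used here.

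Alox15, the 12/15-lipoxygenase gene (ENSMUSG00000018924, chr11:70344152-70352031), was near the limit of what these libraries could show. It had 0, 3 and 3 reads in Flox saline, 0, 3 and 6 in Flox carrageenan, 9, 14 and 7 in LysMCre saline and 33, 38 and 2 in LysMCre carrageenan. On the common scale the highest values were 11.3 in both LysMCre carrageenan 1-4 and 5-8, against 3.09 in 9-12 of that group and 10.2 in Flox carrageenan 4-7. All groups overlapped. The log2 fold change with carrageenan was 0.29 ± 0.96 in Flox and 0.90 ± 0.96 in LysMCre (limma adjusted p = 0.883 and 0.954), with a 95% interval of -0.86 to 2.04 for the average. A reading of 0 reads in Flox saline 1-3 allowed up to 16.6 normalized counts, more than any value of this gene.

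Ltc4s, which encodes the synthase of the cysteinyl leukotriene branch (ENSMUSG00000020377, chr11:50236461-50238616), was read at 38.8, 108 and 86.3 in Flox saline and 36.7, 44.2 and 40.3 in Flox carrageenan. In LysMCre the values were 106, 82.3 and 72.2 in saline and 42.4, 39.4 and 20.1 in carrageenan. The Flox groups overlapped through Flox saline 1-3, with 7 reads, and the LysMCre groups did not overlap. When genotypes were averaged, Ltc4s fell by 1.09 ± 0.28 on the log2 scale with carrageenan, 2.14-fold (limma adjusted p = 0.0186; 0.0643 without LysMCre saline 1-4). Within a genotype it did not pass: -0.81 ± 0.40 in Flox (adjusted p = 0.235) and -1.38 ± 0.40 in LysMCre (0.0944), although edgeR and DESeq2 on whole reads called the LysMCre difference (adjusted p = 0.0209 and 0.00304). Without Flox saline 1-3 the Flox value was -1.24 (limma adjusted p = 0.0373), and the LysMCre value passed too, at an adjusted p of 0.0129, though its own libraries were the same, because all groups share 1 estimate of the spread. An exon of Gm26542 lies on the opposite strand, with the same doubt about strand as for Alox5ap.

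Lta4h, the hydrolase of the leukotriene B4 branch (ENSMUSG00000015889, chr10:93453411-93484875), kept a narrow range of 20.7 to 44.8 over the 12 libraries. It was read at 22.2, 37.5 and 44.2 in Flox saline and 34.1, 27.2 and 41.0 in Flox carrageenan. The LysMCre readings were 30.6, 38.0 and 29.6 in saline and 21.2, 20.7 and 44.8 in carrageenan. Neither pair of groups was separate, and the highest value, in LysMCre carrageenan 9-12, stood beside the lowest of the set in the same group. The log2 fold change was 0.014 ± 0.41 in Flox and -0.26 ± 0.41 in LysMCre (limma adjusted p = 0.988 and 0.997). The 95% interval of the average ran from -0.74 to 0.50, so that a change of 1 log2 unit in either direction lay outside it.

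Ltb4r1, the high-affinity leukotriene B4 receptor gene (ENSMUSG00000046908, chr14:55765962-55768494), was read at 0, 18.8 and 50.7 in Flox saline and 52.4, 68.0 and 54.7 in Flox carrageenan. The LysMCre values were 15.6, 12.5 and 26.0 in saline and 11.3, 15.7 and 84.9 in carrageenan. All 3 Flox carrageenan libraries lay above the Flox saline libraries, though the gap to Flox saline 8-10 was small. In LysMCre carrageenan 1 library, 9-12, held the highest value of the series and the other 2 stayed within the range of saline. The log2 fold change was 2.55 ± 1.09 in Flox (limma adjusted p = 0.173) and 0.51 ± 1.09 in LysMCre (0.997). Without Flox saline 1-3, which had no read of the gene, the Flox value was 0.88 (adjusted p = 0.462), and without Flox saline 8-10 it was 3.73 (adjusted p = 0.0355). In the same way, leaving out LysMCre carrageenan 9-12 turned the LysMCre value to -0.35. The reading of 0 allows up to 16.6 normalized counts, and the count-based fits gave smaller Flox values, down to 0.94. In the 4 deepest libraries, all LysMCre, the gene lay between 11.3 and 15.7.

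Cysltr1, the CysLT1 receptor gene (ENSMUSG00000052821, chrX:106574346-106603679), was read at 16.6, 39.9 and 32.4 in Flox saline and 5.24, 10.2 and 8.36 in Flox carrageenan. The LysMCre values were 28.9, 35.7 and 25.4 in saline and 15.4, 16.6 and 18.5 in carrageenan. The carrageenan libraries lay below the saline libraries in both genotypes. Reads were few in Flox: 3, 17 and 30 in saline and 2, 3 and 11 in carrageenan. In Flox, Cysltr1 fell by 1.73 ± 0.47 on the log2 scale (limma adjusted p = 0.0401), a call lost in 10 of 12 omissions (up to 0.110) and without the filter on low values (0.0577). The LysMCre value was -0.79 ± 0.47 (adjusted p = 0.689). Averaged over genotypes it fell by 1.26 ± 0.34, 2.40-fold (limma adjusted p = 0.0228), lost in 5 omissions of 12 (up to 0.0707).

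**Figure D1:**
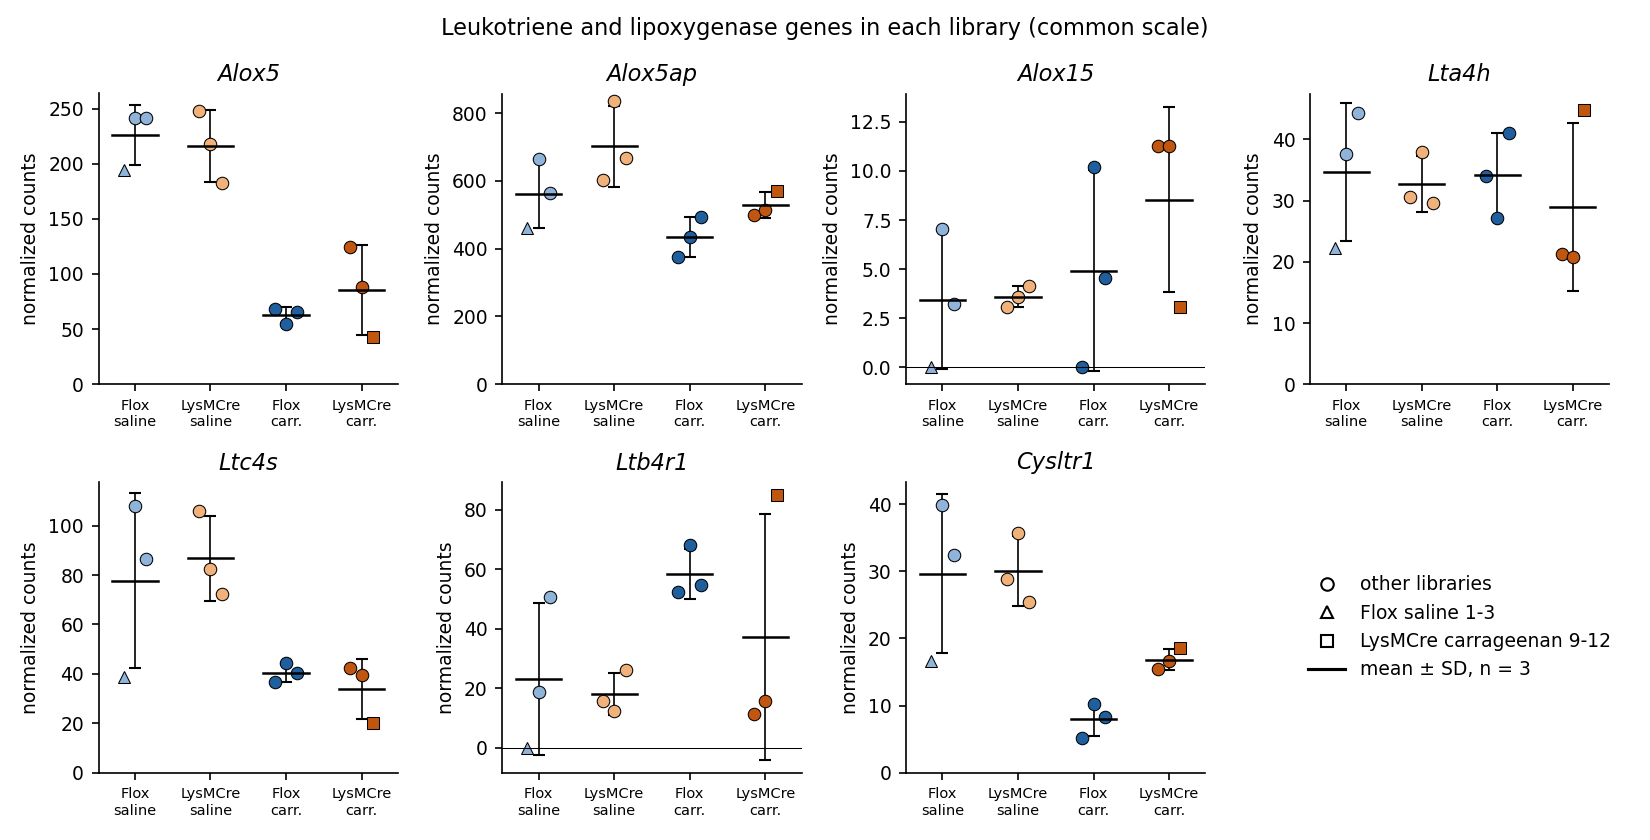
Normalized counts on the common scale (y axis, linear) of the 7 genes in 12 libraries, by group (x axis), with bars for the mean ± SD (n = 3); triangles are Flox saline 1-3 and squares LysMCre carrageenan 9-12. Alox5 lay at 182 to 248 in saline and 43.2 to 124 in carrageenan, while Ltb4r1 in LysMCre carrageenan split into 84.9 in pool 9-12 against 11.3 and 15.7.

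By count, 2 of the 7 genes fell and 0 rose in Flox (Alox5 and Cysltr1), where limma called 7.17% of the 10240 genes tested, 4.42% as higher and 2.74% as lower (453 and 281 genes, or 376 and 342 on the deposited scale). In LysMCre 1 fell (Alox5), against 2.65% called, 2.10% as higher and 0.547% as lower. Averaged over genotypes 3 fell and 0 rose, against 11.6% called, 6.77% as higher and 4.83% as lower. On whole reads, edgeR and DESeq2 each called 2 in Flox (Alox5 and Cysltr1), where they called 5.89% and 8.65% of all genes. Each called 2 in LysMCre (Alox5 and Ltc4s; 7.13% and 8.94% of genes) and 3 on average (14.9% and 18.1%). The groups did not overlap for 3 of the 7 in Flox (Alox5 and Cysltr1 lower, Ltb4r1 higher), where this held for 23.0% of all genes. In LysMCre they did not overlap for 4 of the 7, all lower (Alox5, Alox5ap, Ltc4s and Cysltr1), against 29.6% of all genes and 17.0% in that direction. The median log2 fold change of the 7 was -0.37 in Flox and -0.40 in LysMCre, beside 0.10 and -0.074 over all genes. These 7 genes were chosen with earlier results of these data known. The counts also moved with the setting. Without the filter on low values 1 gene was called in Flox and 0 in LysMCre, beside 418 and 139 of all 22055 genes. With library quality weights 4 were called in LysMCre (Alox5, Ltc4s and Cysltr1 lower, Alox15 higher), beside 2453 of all 10240 genes.

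**Figure D2:**
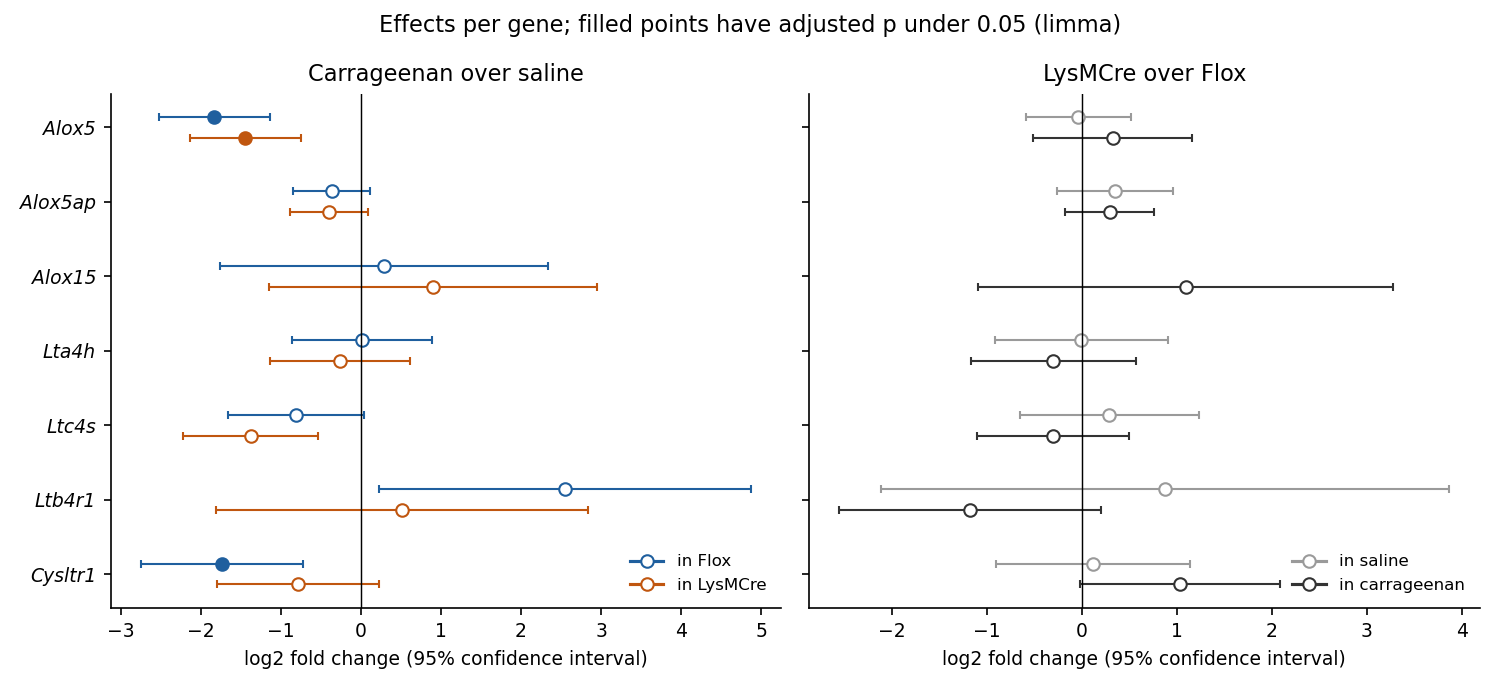
Log2 fold changes (x axis) with 95% confidence intervals for each gene (y axis), carrageenan over saline within each genotype on the left and LysMCre over Flox within each treatment on the right. Filled points, Alox5 in both genotypes and Cysltr1 in Flox, passed an adjusted p of 0.05 in limma, and no point passed on the right, where Alox15 was not tested in saline.

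Because the 12 libraries differ in depth and the tables were scaled apart, ratios of reads between genes of 1 library were also taken, since no scaling enters them. They were added after the values had been seen, and a ratio of reads is not a ratio of molecules. The pairs were thus chosen with the levels of their genes known, so the p-values below restate those levels and are not separate support. The adjustment over 9 tests does not correct for that choice. Alox5 had 0.364 to 0.428 reads for each read of Alox5ap in Flox saline and 0.125 to 0.182 in Flox carrageenan. In LysMCre this ratio was 0.261 to 0.412 in saline and 0.0757 to 0.249 in carrageenan, with the lowest value in pool 9-12. All 6 carrageenan libraries lay below all 6 saline libraries, so 5-lipoxygenase reads fell relative to those of its partner. The mean difference was -1.26 on the log2 scale, 2.39-fold (two-sided exact permutation of libraries within genotype, 400 arrangements, p = 0.005, the smallest they can give; Benjamini-Hochberg adjusted p = 0.0225 over 9 tests of ratios). With the LysMCre pools paired by number, this ratio and the next 2 each gave the smallest p of 160 arrangements (0.0125, adjusted 0.0281).

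The enzymes of the branches after leukotriene A4 also parted. Ltc4s had 1.75 to 2.88 reads for each read of Lta4h in Flox saline and 0.981 to 1.63 in Flox carrageenan. In LysMCre the range was 2.17 to 3.46 in saline and 0.448 to 2.00 in carrageenan, again lowest in pool 9-12. The groups were separate within each genotype, but in Flox only narrowly and on few reads. The nearest Flox libraries had 7 reads against 4 (saline 1-3, 1.75) and 13 against 8 (carrageenan 4-7, 1.63). The ratio was lower in carrageenan by a mean of 0.97 on the log2 scale, 1.96-fold (exact permutation p = 0.005, adjusted 0.0225, and p = 0.05 without LysMCre saline 1-4). For the receptors, Ltb4r1 had 0 to 1.57 reads for each read of Cysltr1 in Flox saline and 6.55 to 10.0 in Flox carrageenan. In LysMCre it had 0.350 to 1.02 in saline, and in carrageenan 0.733, 0.946 and, in pool 9-12, 4.58. The receptor ratio was thus higher in carrageenan in Flox, whereas LysMCre overlapped, with a mean difference of 2.57 (exact permutation p = 0.015, adjusted 0.045). By genotype the 3 ratios gave exact permutation p = 0.54, 0.70 and 0.225, in the order above.

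**Figure D3:**
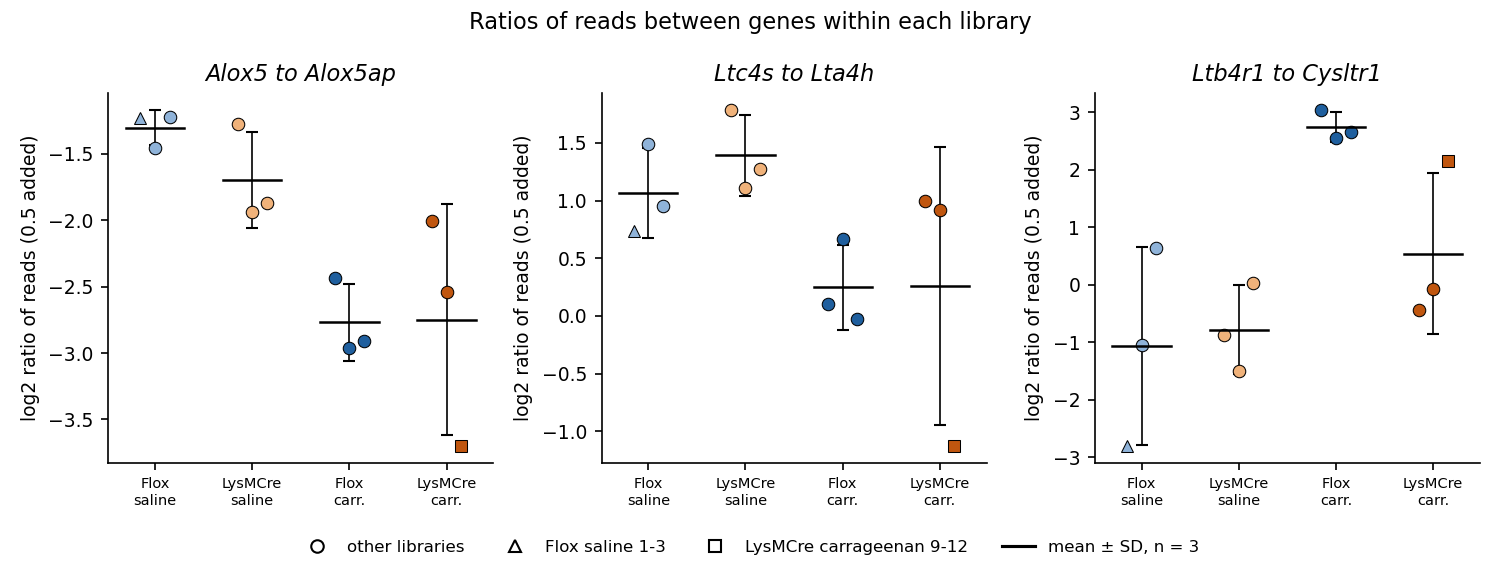
Log2 ratio of reads, with 0.5 added to each count (y axis), for 3 pairs of genes in each library by group (x axis), with bars for the mean ± SD (n = 3). The Alox5 to Alox5ap ratio lay lower in all 6 carrageenan libraries than in any saline library, and the Ltb4r1 to Cysltr1 ratio was highest in the Flox carrageenan libraries and LysMCre carrageenan 9-12.

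Markers of cell types moved with treatment beside these genes. The summed level of 14 tissue macrophage markers, such as the scavenger receptor Cd163 and the complement gene C1qa, was 10610 to 14977 in Flox saline and 4281 to 5153 in Flox carrageenan. In LysMCre it was 14414 to 17940 in saline, and 8680, 8225 and, in pool 9-12, 5361 in carrageenan. Of the 14 markers 10 fell in Flox, 4 in LysMCre and 13 when genotypes were averaged. The summed level of 8 monocyte markers was 677 to 890 in Flox saline, 2580 to 2969 in Flox carrageenan and 583 to 786 in LysMCre saline, and it was 945, 1572 and, in pool 9-12, 3428 in LysMCre carrageenan. Of these 8, 6 rose in each genotype. Neutrophil markers, 13 in the list, summed to 32.8 to 72.3 and 272 to 620 in Flox and to 19.1 to 33.7 and 122 to 613 in LysMCre, for saline and carrageenan, with 613 again in pool 9-12. Other lists moved in Flox too: fibroblast markers summed to 38.8 to 562 in Flox saline and 697 to 1208 in Flox carrageenan (2 of 6 rose), and endothelial markers to 0 to 16.2 and 39.3 to 54.4 (2 of 4 tested rose). Of the dendritic cell markers, 2 of 6 tested rose when genotypes were averaged. The part of these lists in the levels of the 7 genes was not tested.

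The 3 genes that fell were also set against the macrophage markers. For each 1000 reads of the 14 tissue macrophage markers, Alox5 had 18.3, 16.1 and 17.3 reads in Flox saline and 14.5, 12.7 and 12.7 in Flox carrageenan. In LysMCre it had 17.2, 12.2 and 11.5 in saline and 14.3, 10.8 and 8.06 in carrageenan. The Flox groups stayed separate and the LysMCre groups overlapped. The mean difference was -0.33 on the log2 scale, 1.26-fold (exact permutation p = 0.05, adjusted p = 0.1125). With the LysMCre pools paired by number it passed (exact permutation p = 0.0125, the smallest that 160 arrangements can give, adjusted p = 0.0281). The labels do not state this pairing, which was taken from the likeness of the pools in these same data. Ltc4s had 3.66 to 7.20 reads for each 1000 in Flox saline and 7.79 to 10.3 in Flox carrageenan, and 4.57 to 7.34 and 3.74 to 4.88 in LysMCre, a mean difference of 0.20 (exact permutation p = 0.43). That mean joins opposite directions, since the carrageenan libraries lay above all saline libraries in Flox, whereas in LysMCre the groups overlapped with the lower mean in carrageenan, and the difference between genotypes in this ratio was not tested. Cysltr1 had 1.57 to 2.66 for each 1000 in Flox saline and 1.11 to 2.38 in Flox carrageenan. In LysMCre it had 1.61 to 2.01 in saline and 1.77 to 3.46 in carrageenan, and the groups overlapped in both genotypes. The mean difference was 0.026 (exact permutation p = 0.905). It too joins opposite directions, with log2 means from -8.78 to -9.06 in Flox and from -9.06 to -8.73 in LysMCre. Whether the genotypes differ in this was not tested. These ratios compare reads of a gene with reads of the markers, and they do not separate the number of macrophages from the RNA in each. Ltb4r1 had its 4 highest values, 52.4 to 84.9, in the 4 libraries with monocyte marker sums of 2580 and above, and it was 11.3 and 15.7 in the LysMCre carrageenan pools with sums of 945 and 1572. Flox saline 8-10 did not follow this order, with Ltb4r1 at 50.7 beside a monocyte sum of 890.

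**Figure D4:**
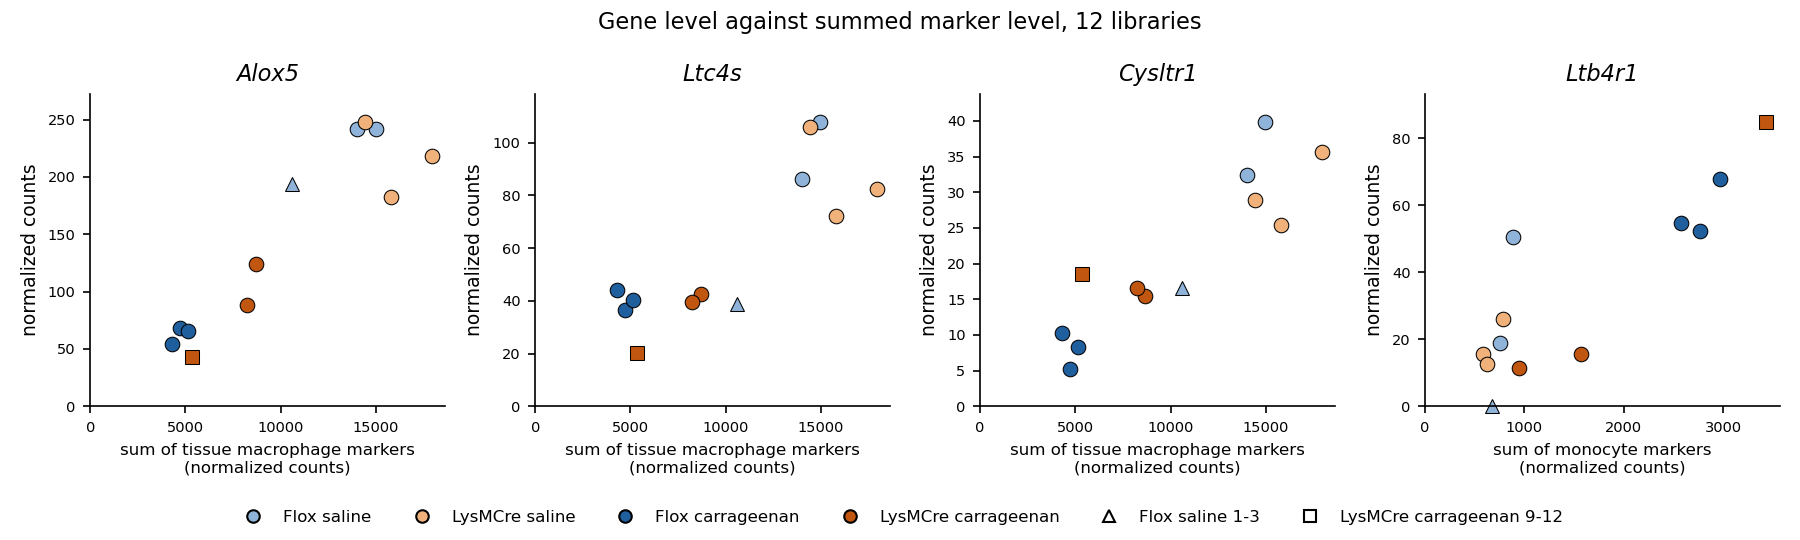
Normalized counts of Alox5, Ltc4s and Cysltr1 (y axes) against the summed level of 14 tissue macrophage markers (x axes), and of Ltb4r1 against that of 8 monocyte markers, with 1 point for each of 12 libraries, coloured by group. LysMCre carrageenan 9-12 (square) lay with the Flox carrageenan libraries on both marker sums, at 5361 and 3428.

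The genes whose pattern over the 12 libraries was most like that of each gene were named by Pearson's r of log2 values among 5439 genes. These values describe 12 points that share depth and treatment. Alox5 was nearest to Lifr (r = 0.967), the leukemia inhibitory factor receptor, Fgfr1 (0.964) and Csf1r (0.964), the macrophage growth factor receptor that is also among the 14 markers above. Ltc4s was nearest to Tmem37 (0.979), Flywch1 (0.968) and Tep1 (0.923), and Cysltr1 to Idh1 (0.943), Ms4a7 (0.932) and Tnfrsf11a (0.931). Alox5ap was nearest to Antxr2 (0.915), Slc25a4 (0.909) and Rnf130 (0.906). Ltb4r1 was nearest to Ndufa3 (0.983), Lsm4 (0.970) and Lst1 (0.969). The nearest genes of Lta4h were Ndufa7 (0.855), Cox6a1 (0.852) and Mcub (0.850), and those of Alox15 were Fxr1 (0.929), Parl (0.922) and Gar1 (0.921). For these last 3 members r was lower over the 11 libraries without Flox saline 1-3, such as 0.910 for Lst1, 0.823 for Cox6a1 and 0.880 for Parl.

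Other genes of the pathway, 40 on a list by role, gave the setting for the 7. Of these, 23 were tested, and averaged over genotypes 3 rose (Fpr2, Mapkapk2 and Fpr1), 1 fell (Ggt5) and 19 did not pass, against 11.6% of all genes called. Their median log2 fold change was 0.14, beside 0.019 over all genes. In Flox 2 rose (Fpr2 and Mapkapk2) and 1 fell (Ggt5), against 7.17% called, and in LysMCre 1 rose (Fpr2), against 2.65%. None of the 5 other lipoxygenases reached the filter, Alox12b having the most reads of them (66 in all), and none of the 4 other leukotriene receptors did (Ltb4r2 10 reads, Cysltr2 2, Gpr17 1 and Oxgr1 0).

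Among genes that free or hold arachidonate, 0 of 6 tested passed in the main limma fits. Pla2g4a, the cytosolic phospholipase A2 that releases arachidonate, was read at 5.55, 30.5 and 32.4 in Flox saline and 44.5, 68.0 and 63.8 in Flox carrageenan. The LysMCre readings were 32.0, 69.1 and 30.2 in saline and 52.7, 80.0 and 44.8 in carrageenan. Flox was separate and LysMCre overlapped, with an average of 1.06 ± 0.39 (limma adjusted p = 0.106). With the pools blocked by number, Pla2g4a passed in Flox (1.63, limma adjusted p = 0.0425) and on average (0.0419). That block also pairs the Flox pools, whose pairing, as for LysMCre, the labels do not state. With quality weights Pla2g4a passed on average too (0.93, limma adjusted p = 0.0153). Acsl4, which loads arachidonate onto coenzyme A, gave 0.71 ± 0.24 (adjusted p = 0.0772), and Mboat7, which puts it into phosphatidylinositol, 1.47 ± 0.70 (0.213). DESeq2 called both on average (adjusted p = 0.0461 for Acsl4 and 0.0447 for Mboat7), with a smaller value of 0.70 for Mboat7. Mboat7 had no read in Flox saline 1-3. Acsl4 also passed in limma with quality weights (0.00905) and without LysMCre saline 5-8 or LysMCre carrageenan 9-12 (0.0439 and 0.0381).

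Mapkapk2, the kinase known to phosphorylate 5-lipoxygenase, was read at 150, 366 and 416 in Flox saline and 556, 660 and 749 in Flox carrageenan. In LysMCre the readings were 284, 221 and 341 in saline and 499, 431 and 644 in carrageenan. The groups were separate in both genotypes, and the gene rose when they were averaged (1.04 ± 0.24, limma adjusted p = 0.00980). Its Flox call (1.19 ± 0.34, adjusted p = 0.0466) was lost in 10 of 12 omissions, up to 0.127, and in 7 of 11 other settings, edgeR among them. Mgst1 and Mgst3, membrane glutathione transferases related to Ltc4s, gave 0.68 ± 0.30 and -0.21 ± 0.69 (limma adjusted p = 0.173 and 0.889).

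Ggt5, which trims leukotriene C4 to D4 outside the cell, was read at 16.6, 11.7 and 11.9 in Flox saline and 2.62, 0 and 1.52 in Flox carrageenan, on 3, 5 and 11 reads and 1, 0 and 2 reads. LysMCre gave readings of 7.82, 2.80 and 5.92 in saline and 2.05, 2.96 and 3.09 in carrageenan. In Flox it fell by 2.77 ± 0.68 (limma adjusted p = 0.0233; 0.0781 without Flox carrageenan 4-7, and lost with edgeR or without the filter on low values, up to 0.0836). On average it fell by 1.76 ± 0.48 (limma adjusted p = 0.0261, lost in 4 of 12 omissions, up to 0.0907). The exporters Abcc1 (-0.35 ± 0.16) and Abcc4 (1.26 ± 0.61) did not pass (limma adjusted p = 0.213 and 0.218). The same held for the enzymes that oxidize leukotriene B4 or their relatives, Cyp4f18 (0.69 ± 0.27, 0.125), Cyp4f16 (0.31 ± 0.35, 0.645) and Cyp4f13 (-0.80 ± 0.37, 0.197). On average DESeq2 called Cyp4f18 (adjusted p = 0.0490), and limma with quality weights called Cyp4f13 (adjusted p = 0.0246).

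Fpr2, the formyl peptide receptor that also binds lipoxin A4, was read at 0, 14.1 and 14.0 in Flox saline and 81.2, 129 and 135 in Flox carrageenan. In LysMCre it was read at 4.42, 8.92 and 6.51 in saline and 73.5, 115 and 182 in carrageenan. No saline library reached any carrageenan library, and Fpr2 rose by 4.22 ± 0.81 in Flox and 3.98 ± 0.81 in LysMCre (limma adjusted p = 0.00664 and 0.0170). The LysMCre call was lost in 4 of 12 omissions (up to 0.102), and the average, 4.10 ± 0.57 (adjusted p = 0.000305), was kept in all 12. Fpr1, its relative, had 0, 0 and 1 reads in Flox saline and 0, 1 and 16 in Flox carrageenan, and 1, 2 and 0 and 8, 20 and 5 in LysMCre. Its average of 1.93 ± 0.60 passed narrowly (limma adjusted p = 0.0496) and was lost in 7 of the 9 omissions that left it testable (up to 0.122). Cmklr1, a chemerin receptor described for resolvin E1 as well, gave -0.39 ± 0.26 (adjusted p = 0.389). It passed in limma with quality weights (-0.65, adjusted p = 0.0130) and without Flox saline 1-3 (-0.62, 0.0339).

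**Figure D5:**
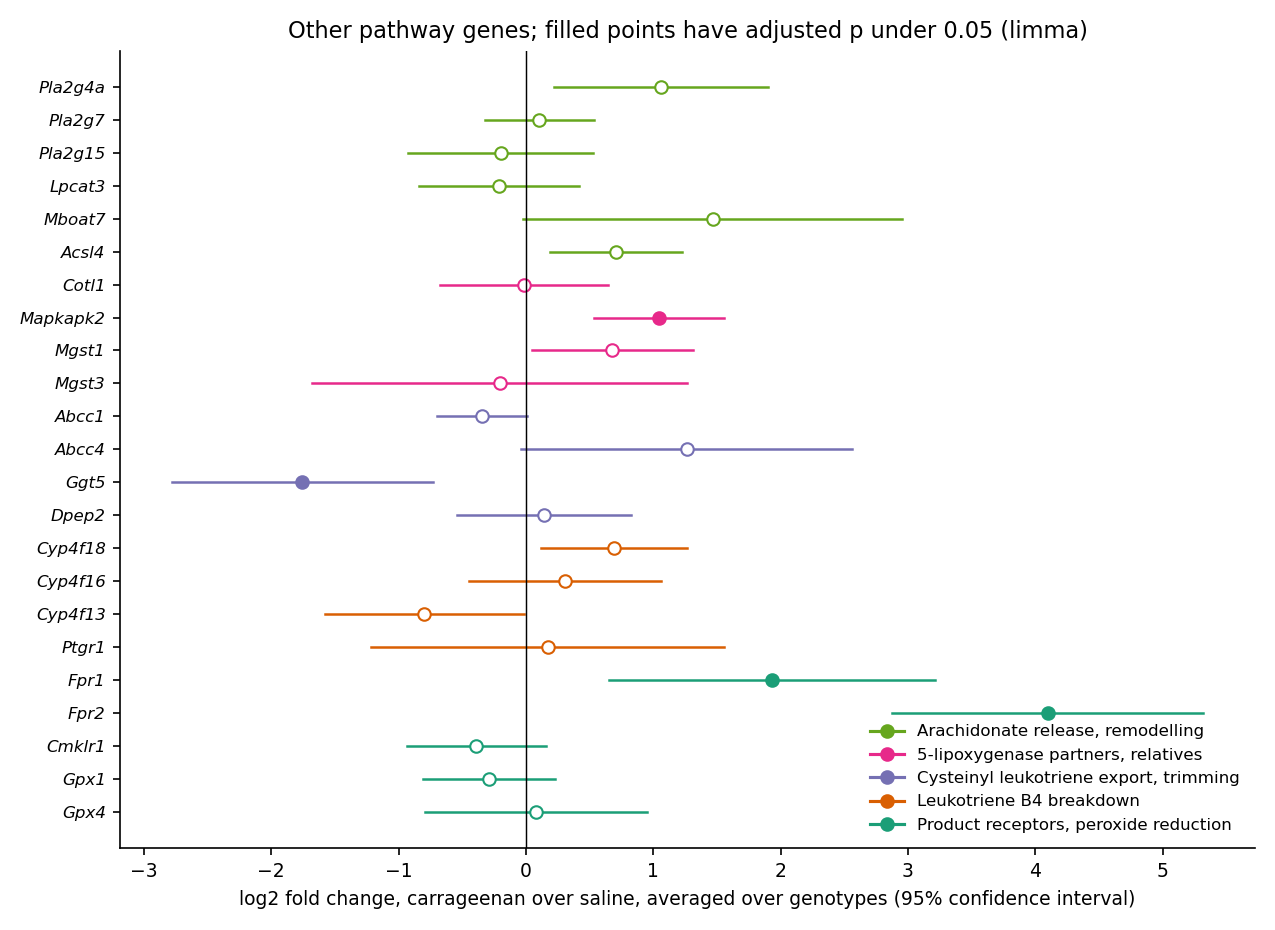
Log2 fold change of carrageenan over saline averaged over genotypes (x axis) with 95% confidence intervals for the 23 other pathway genes tested (y axis), coloured by role. Filled points passed an adjusted p of 0.05 in limma: Fpr2, Fpr1 and Mapkapk2 lay to the right of 0 and Ggt5 to the left.

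LysMCre was set against Flox within each treatment to ask whether targeting Fabp5 went with other levels of these genes. In saline 0 of 6 genes tested passed (limma called 0.00% of 9371 genes, edgeR 0.00% and DESeq2 0.235%). At an unadjusted p under 0.05 the count was 0 of 6, against 508 genes or 5.42%, and 0 of 6 had separate groups, against 15.6% of genes. The median log2 fold change of the 6 was 0.21, beside 0.25 over all genes. Alox5 was 232 ± 35.5 in Flox and 226 ± 33.2 in LysMCre (deposited scale, mean ± SD, n = 3 each), a log2 fold change of -0.036 with a 95% interval of -0.59 to 0.52 (limma adjusted p = 0.960). The values for the other genes were 0.35 ± 0.27 for Alox5ap, -0.0037 ± 0.40 for Lta4h, 0.29 ± 0.41 for Ltc4s, 0.88 ± 1.31 for Ltb4r1 and 0.12 ± 0.45 for Cysltr1, with limma adjusted p from 0.687 to 0.996. The value of Ltb4r1 changed sign, to -0.81, without Flox saline 1-3, which had no read of it, and was -0.76 with edgeR.

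In carrageenan 0 of 7 passed (limma called 0.00% of 9151 genes, edgeR 0.00% and DESeq2 0.0765%), and 0 of 7 had an unadjusted p under 0.05, against 897 genes or 9.80%. The median of the 7 was 0.30, beside 0.095 over all genes. Separate groups were seen for Alox5ap and Cysltr1, 2 of the 7 against 15.1% of genes, both higher in LysMCre, as were 8.87% of genes. The tissue macrophage marker sums were also higher in LysMCre carrageenan, 5361 to 8680 against 4281 to 5153 in Flox, and their part was not tested. Cysltr1 had 2, 3 and 11 reads in the Flox libraries. Cysltr1 was 16.3 ± 1.44 in LysMCre and 7.64 ± 2.40 in Flox, a log2 fold change of 1.04 ± 0.47 with a 95% interval of -0.012 to 2.09 (limma adjusted p = 0.504). Alox5ap was 512 ± 33.7 against 418 ± 54.8 (0.30 ± 0.21, adjusted p = 0.591). The values for Alox5 (0.33 ± 0.38), Alox15 (1.09 ± 0.98), Lta4h (-0.30 ± 0.39) and Ltc4s (-0.30 ± 0.36) had limma adjusted p from 0.672 to 0.778.

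Ltb4r1 in carrageenan rested on 1 library. It was 36.0 ± 39.7 in LysMCre and 56.2 ± 8.05 in Flox, a log2 fold change of -1.17 ± 0.62 (limma adjusted p = 0.520). Without LysMCre carrageenan 9-12 the difference was -2.03 and passed (limma adjusted p = 0.0154), in a fit that called 420 of 8908 genes. With library quality weights it was -1.80 (limma adjusted p = 0.0132), where 980 of 9151 genes were called. The main fit called 0 genes, so these calls came with a shift over many genes. The other 5 omissions gave -1.24 to -0.64 with adjusted p from 0.521 to 0.971. The LysMCre libraries left by that omission had monocyte marker sums of 945 and 1572, against 2580 to 2969 in Flox carrageenan, and the part of these markers in the difference was not tested. They were also among the deepest libraries, and genotype and depth cannot be told apart here.

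Averaged over treatments 0 of the 7 passed in limma, edgeR or DESeq2 (0.00976%, 0.625% and 2.48% of 10243 genes called) or had an unadjusted p under 0.05 (14.9% of genes), with values from -0.15 ± 0.29 for Lta4h to 0.80 ± 0.68 for Alox15. Alox5ap, at 0.32 ± 0.16, and Cysltr1, at 0.58 ± 0.34, had the smallest p (limma adjusted p = 0.363 and 0.409). The difference between the carrageenan effects of the genotypes was tested directly as well, and 0 of 7 passed (limma, edgeR and DESeq2 called 0.00% of 10243 genes each), with 0 of 7 at an unadjusted p under 0.05, against 244 genes or 2.38%. For Alox5 it was 0.37, with a 95% interval of -0.63 to 1.36, and for Ltb4r1 -2.05, with an interval of -5.38 to 1.27 (limma adjusted p = 0.967 for both). The Ltb4r1 difference was -0.36 without Flox saline 1-3 and -3.25 without Flox saline 8-10, and -0.038 with edgeR. The Alox5 call in both genotypes and the Cysltr1 call in Flox alone are therefore not shown to differ between genotypes.

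The authors' deposited table of LysMCre over Flox gave no adjusted p under 0.05 for these genes. Its log2 fold changes in carrageenan were 0.39 ± 0.35 (± SE) for Alox5, 0.27 ± 0.21 for Alox5ap, 0.71 ± 0.43 for Cysltr1 and -0.46 ± 0.43 for Ltb4r1 in the authors' deposited table. It held no adjusted p for Cysltr1 in carrageenan or for Alox15 in either treatment. For Alox5 in saline the authors' deposited table gave -0.053 ± 0.25, with an adjusted p of 0.982.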

How the data were processed

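RNA of 12 pools of sorted paw cells (4 groups of 3) was sequenced as 3' mRNA libraries with unique molecular identifiers, per the labels. The submitters' processing notes name the genome GRCm38 and the tools cutadapt and STAR. Their versions and the program that counted reads were not stated in the labels or headers. Both deposited tables of levels hold normalized counts, a signal made by the authors, with saline and carrageenan scaled separately. The authors' other tables give a log2 fold change of LysMCre over Flox with its standard error, a test statistic (a score), and a p-value raw and adjusted, per the file headers. Whole reads were recovered from the signal (100% of low values whole within 0.001). Depth was 111925 to 2987015 reads, and a reading of 0 allows 3 reads, counting error only. The 121 entries that are not genes held 0.170 to 2.23% of reads and were left out.

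Of 55401 gene IDs, 55141 matched a symbol in GENCODE vM21 on GRCm38. Genes that reached 5 in 3 libraries or more were tested by limma (trended variance, log2 of value + 1), with Benjamini-Hochberg adjustment and a threshold of 0.05. Treatment was compared on all 12 libraries on a common scale (medians of ratios over 6501 genes), genotype within a treatment on its 6 libraries, and the average and the difference of effects on 12 libraries, on the deposited scale. edgeR and DESeq2 on the recovered reads, other pseudocounts, filters, scalings, variance models, weights and a replicate block were alternatives. Versions were DESeq2 1.42.0, edgeR 4.0.16, limma 3.58.1 and R 4.3.3, and the fits were tested on simulated data. Libraries of a group differed by more than counting error in every pair.

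Same-numbered saline and carrageenan pools deviated together in LysMCre (r = 0.200, 0.335 and 0.433 over 10240 genes), each above 0.1. These were taken as paired, although the mismatched saline 5-8 and carrageenan 1-4 pools gave 0.236. In Flox r was 0.0091, -0.018 and 0.109, and the pools were not taken as paired. Flox libraries held fewer reads (geometric means), so a low r cannot show that they are unpaired. The labels state no pairing for either genotype. The main fits carry no block, and the blocked value is given where it changes a call. The block pairs same-numbered pools in both genotypes, Flox included.

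The 7 genes and the lists were chosen with earlier results of these data known. Named genes were the 7, other pathway genes past the threshold in any comparison, up to 3 tested genes a role with the smallest p for the averaged treatment effect, and for each of the 7 the 3 genes of most like pattern among named genes with a mean of at least 20. Ratios of reads (0.5 added) were chosen after the data had been seen.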

Additional observations from a re-analysis of the deposited data

How the results depend on the processing

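The falls of Alox5 in Flox and on average kept their direction and call under all 11 other settings and all 12 omissions, with log2 values of -1.94 to -1.74 and -1.80 to -1.43 over the omissions. The number of the 7 genes called with carrageenan was 2 in Flox, 1 in LysMCre and 3 on average. Omitting 1 library gave 1 to 3, 0 to 2 and 1 to 3. Without a filter on low values, 1 was called in Flox and 0 in LysMCre. In LysMCre, limma without a mean trend called 0, library quality weights 4, and edgeR and DESeq2 2 each. Between genotypes, weights called 1 gene (Ltb4r1) in carrageenan and 1 (Ltb4r1, adjusted p = 0.0416) on average, beside 980 of 9151 and 1150 of 10243 genes. Omissions gave 0 to 1 in carrageenan. The replicate block called 2, 1 and 3 with carrageenan and 0 for the difference of effects between genotypes, with 736, 263 and 1217 of all genes against 734, 271 and 1188, so the block changed no call of the 7 and, among the other pathway genes, that of Pla2g4a only (Flox and average). With LysMCre pools paired, which the labels do not state, Alox5 against macrophage markers (-0.33) passed, and no other ratio changed its call.

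Over all genes, the counts for Flox, LysMCre and their average were 418, 139 and 859 without a filter and 637, 2453 and 2067 with weights. LysMCre gave 93 without a trend, 730 with edgeR and 915 with DESeq2, and the average 1854 with DESeq2. Omissions gave 350 to 1078, 84 to 521 and 789 to 1547. Between genotypes, weights called 25 genes in saline, 980 in carrageenan and 1150 on average, pseudocount 5 gave 8, edgeR 64 and DESeq2 254 on average, and omission of LysMCre carrageenan 9-12 gave 420 in carrageenan and 230 on average. On the deposited scale 376 of 718 Flox calls were higher, against 453 of 734, and the median log2 fold change of all genes in LysMCre was -0.18 in place of -0.074, with 2, 1 and 3 of the 7 genes called as before.

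For the ratios, 1 read added in place of 0.5 changed no call. Omissions gave -1.15 to -0.62 for Ltc4s to Lta4h by treatment, -0.37 to 0.052 for Alox5 to Alox5ap and -0.011 to 0.52 for Ltc4s to Lta4h by genotype. Against macrophage markers they gave -0.44 to -0.23 for Alox5 (exact permutation p = 0.01 to 0.13) and -0.13 to 0.13 for Cysltr1. The causes were not tested. Reads of Alox15, Cysltr1, Ggt5 and Fpr1 were few in the Flox libraries, and the 95% interval of Alox15 in Flox, from -1.76 to 2.34, shows what could not be detected at this depth.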
